A study of Homo sapiens with 12 samples.

Results

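Aminoacyl-tRNA synthetases are the enzymes that load each tRNA with its amino acid. A list of 36 of their genes, 20 for the cytosolic enzymes (the names without a final 2, of which GARS and KARS serve both compartments) and 16 for the mitochondrial enzymes (the names ending in 2), was matched by name to the genes in the files. All 36 were found among the 14866 genes listed, and all 36 were among the 13502 genes with enough signal to be tested, that is, 3 or more libraries with a normalized count of 10 or above. SHI-1, the line used, is an established human acute myeloid leukemia line that carries the MLL-AF6 fusion, and every library came from it. RNA was taken after 16 h from 4 groups of 3 libraries. DMSO, the solvent, was the control. DSF cells received 0.3 µM disulfiram together with 1 µM copper, and NSM cells received 5 µM niclosamide. DSF+NSM cells received both drugs at these doses, together with 1 µM copper. The labels do not state whether the DMSO and NSM cells also received copper. Their treatment protocol gives 3 independent experiments, so the p-values measure the spread between those experiments in a single cell line.

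A cell needs a separate synthetase for nearly every amino acid, and most of them come in a pair of genes, one enzyme for the cytosolic ribosomes and one that is imported into mitochondria to serve the ribosomes that make subunits of the respiratory chain. EPRS joins the glutamyl and prolyl enzymes in one protein, while mitochondria use EARS2 and PARS2 for these amino acids. Several cytosolic synthetases sit in one large multisynthetase complex held together by AIMP1, AIMP2 and EEF1E1. When tRNAs stay uncharged or other stresses reach the cell, phosphorylation of the initiation factor eIF2 favours translation of ATF4, a transcription factor whose known targets include many of the cytosolic synthetases and the asparagine synthetase ASNS.

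The sequence below each name shows the place in the promoter window of that gene that holds TGATGNAA, the core of the C/EBP-ATF response element bound by ATF4 with its partners. They are shown because these letters recur in the cytosolic class, and the changes of the genes that hold them are given further on. The windows run from 250 bases before to 50 bases after a RefSeq start site (GRCh38.p14), 30 of the 36 genes matched one, and AARS2, DARS, LARS, VARS, VARS2 and YARS did not. Each run of 30 bases is read 5′ to 3′ on the strand of its gene, and the capitals mark the 8 letters matched, which read TTGCATCA where TGATGCAA lies on the opposite strand.
CARS, chr11:3057407-3057436, minus strand: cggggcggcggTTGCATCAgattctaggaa
AARS, chr16:70289675-70289704, minus strand: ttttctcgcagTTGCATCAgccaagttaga
TARS, chr5:33440956-33440985, plus strand: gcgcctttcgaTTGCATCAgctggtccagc
MARS, chr12:57488053-57488082, plus strand: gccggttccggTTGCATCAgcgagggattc
GARS, chr7:30594834-30594863, plus strand: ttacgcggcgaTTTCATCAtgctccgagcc
IARS, chr9:92293692-92293721, minus strand: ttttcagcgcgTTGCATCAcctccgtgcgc
NARS, chr18:57621804-57621833, minus strand: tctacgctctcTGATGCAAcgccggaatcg
YARS2, chr12:32756076-32756105, minus strand: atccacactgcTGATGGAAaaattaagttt

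In CARS, AARS, TARS, MARS and IARS the 8 letters were the same and in the same orientation. The first letter lay 2 bases after the start site in TARS, 2 bases before it in CARS and 4 bases before it in MARS, and 187 bases before it in AARS. Read on either strand, TGATGNAA was held by 7 of the 16 cytosolic genes with a window (43.8%) and by 1 of the 14 mitochondrial genes (7.14%), against 4.46% of all 27305 genes in the table of windows and 2.88% of the 10386 of them listed in the files. By window, 3.62% of all 35116 held it. The other motifs were read the same way on both strands, and none of them shares its letters with TGATGNAA. CACGTG, the E-box that MYC binds among others, was in 1 of 16 cytosolic genes (IARS) and in 3 of 14 mitochondrial genes (MARS2, CARS2 and EARS2), against 12.4% of the genes listed in the files (7.26% of all windows). The paired half-site of NRF1, a factor for genes of mitochondrial proteins, was in 3 of 16 (18.8%) and 3 of 14 (21.4%), close to the 17.8% of the genes listed in the files (8.32% of all windows). The core of the interferon-stimulated response element was in 1 of 16 (WARS) and 1 of 14 (EARS2), against 4.19% of the genes listed in the files (3.57% of all windows). A match describes these letters only, and no binding was measured.

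The deposited values are normalized counts, which are estimated reads divided by a factor for each library. Read depth, estimated from the smallest step between values, was 10.2 to 19.03 M reads per library, and the member with the least signal, PARS2, rested on an estimated 30.0 reads in its lowest library. The lowest sum of normalized counts in a library was 13.96 M, in DMSO, and the highest 25.6 M, in DSF+NSM, where all 3 sums lay above those of the other groups. When all sums were set equal, the median log2 fold change over the tested genes against DMSO was −0.05 for DSF, −0.25 for NSM alone and −0.75 for both drugs, so where equal sums turn a called change or a median against DMSO, this is said beside it. NSM replicate 3 stood apart, with Spearman correlations over genes of 0.952 and 0.959 to the other NSM libraries, which correlated at 0.993. Within the other groups these correlations were 0.981 to 0.996. All 8 markers of the myeloid lineage were listed and CD14 (54.0 to 64.9 in DMSO) and CSF1R (71.9 to 88.5) were the lowest. Of 6 markers of other cell types, 4 were listed, and their summed level was 952.3 to 1033.7 in DMSO, 1325.2 to 1438.1 in DSF, 679 to 742.3 in NSM and 645.7 to 879.6 in DSF+NSM libraries. Most of that sum was PECAM1, a single gene, and the sum was not taken as a sign of other cells. The summed level of the myeloid list, to which MPO gave more than any other gene, was 63370 to 72641 in DMSO, 42188 to 48546 in DSF, 29394 to 34498 in NSM and 31171 to 32153 in DSF+NSM libraries. Of its 8 genes 2 rose and 1 fell after DSF, 4 rose and 3 fell after NSM, and 2 rose and 2 fell after both drugs. Of all tested genes, 11.9%, 25.4% and 28.3% were called higher and 5.95%, 23.7% and 24.5% lower. MPO fell with every treatment (log2 fold changes −0.87 after DSF, −1.78 after NSM and −1.45 after both drugs) and CD14 rose (2.68, 1.54 and 2.46). The part of these shifts in the results below was not tested, and in bulk RNA fewer cells of a type and less RNA per cell cannot be told apart.

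In untreated cells the cytosolic genes were the higher class. Per kilobase of the main annotated transcript, the median cytosolic member was at 786.7 to 836.4 normalized counts in the 3 DMSO libraries and the median mitochondrial member at 168.4 to 176.8. FARSA, the catalytic subunit of the phenylalanyl enzyme, was the highest at a DMSO mean of 3092 per kilobase, followed by KARS, the lysyl enzyme, at 2470. PARS2, the mitochondrial prolyl enzyme, was the lowest at 57.2. The classes overlapped at CARS2 (811.9 per kilobase) and IARS2 (749.7), the mitochondrial cysteinyl and isoleucyl enzymes, which lay above several cytosolic members, CARS (355.2) and FARSB (358.1), the second phenylalanyl subunit, among them.

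After NSM, alone or with DSF, the summed level of the cytosolic class was higher and that of the mitochondrial class lower than in DMSO. The 20 cytosolic genes together gave 54507 to 57695 normalized counts in DMSO, 57930 to 60958 in DSF, 93585 to 99176 in NSM and 78310 to 86458 in DSF+NSM libraries. The 16 mitochondrial genes gave 10574 to 10911, 8956 to 9483, 6626 to 7597 and 6236 to 6567 in the same order. No group overlapped DMSO in either sum. The ratio of the sums is free of any factor for the whole library, and it went from 5.21 ± 0.08 (SD, n = 3) in DMSO to 6.53 ± 0.14 in DSF, 13.5 ± 1.12 in NSM alone and 12.8 ± 0.44 with both drugs, the NSM and DSF+NSM ranges overlapping each other. As a share of all normalized counts, the cytosolic class was 0.390% to 0.406% in DMSO, 0.389% to 0.398% in DSF, 0.557% to 0.568% in NSM and 0.306% to 0.382% in DSF+NSM, so on that scale the class was below DMSO after both drugs. The mitochondrial share was 0.0757% to 0.0765%, 0.0588% to 0.0620%, 0.0382% to 0.0461% and 0.0248% to 0.0290%.

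**Figure D1:**
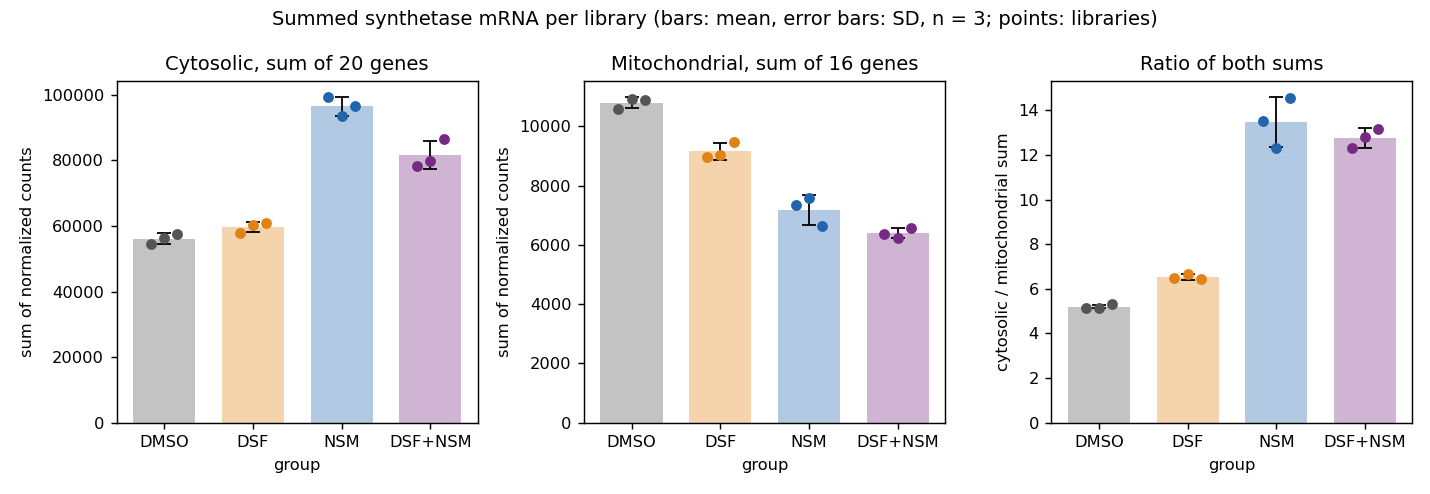
Summed normalized counts of the 20 cytosolic genes (left), of the 16 mitochondrial genes (middle) and the ratio of both sums (right) in the 4 groups. Bars are means, error bars SD (n = 3) and points single libraries. The cytosolic sum is highest in NSM libraries (93585 to 99176), the mitochondrial sum lowest in DSF+NSM libraries (6236 to 6567), and the ratio rises from 5.21 in DMSO to 13.5 in NSM and 12.8 in DSF+NSM.

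After DSF with copper, members were called in both directions in the cytosolic class. Among the cytosolic genes 6 of 20 rose and 3 fell at an adjusted p under 0.05 (limma, Benjamini-Hochberg over all tested genes), with a median log2 fold change of −0.06, and among the mitochondrial genes none of 16 rose and 2 fell, with a median of −0.08. Of all genes tested, 17.8% were called in this comparison (11.9% higher, 5.95% lower), and their median was 0.05. AARS (2.01-fold), CARS (1.93-fold), MARS (1.61-fold), WARS (1.53-fold), SARS (1.45-fold) and YARS (1.39-fold) rose, while FARSB, RARS and LARS fell to 55.3%, 56.5% and 79.2% of the DMSO level. IARS2 and RARS2 fell to 66% and 63.3%. Leaving out any of several single DMSO or DSF libraries ended the calls of LARS, YARS, SARS, IARS2 and RARS2, with adjusted p as high as 0.187, 0.125, 0.0628, 0.14 and 0.109. Without NSM replicate 3, 7 cytosolic genes rose and 5 fell, and 2 mitochondrial genes rose and 6 fell, where 41.2% of all genes tested were called (23.6% higher, 17.6% lower).

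NSM moved the classes in opposite directions for most of the members called. Among the 20 cytosolic genes 10 rose and 4 fell (median log2 fold change 0.43), and among the 16 mitochondrial genes 1 rose and 8 fell (median −0.48). Of all genes tested, 49.1% were called (25.4% higher, 23.7% lower), with a median of 0.01. AARS, CARS, WARS, TARS, MARS, SARS, YARS, GARS, EPRS and KARS rose, FARSA, VARS, RARS and HARS fell, WARS2 rose, and MARS2, AARS2, CARS2, LARS2, EARS2, PARS2, NARS2 and IARS2 fell. Without NSM replicate 3 the counts were 11 and 5 for the cytosolic and 1 and 9 for the mitochondrial class. In that fit 59.9% of all genes were called (31.2% higher, 28.7% lower). With equal library sums the counts were 8 and 5, and 0 and 13, where 16.4% of all genes were called higher and 33.5% lower.

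After both drugs 10 cytosolic genes rose and 6 fell (median 0.29), and none of the mitochondrial genes rose while 9 fell (median −0.70). Of all genes tested, 52.8% were called (28.3% higher, 24.5% lower), with a median of 0.03. AARS, CARS, MARS, SARS, WARS and YARS rose in all 3 comparisons with DMSO, and GARS, KARS and TARS rose in NSM and in DSF+NSM. On the mitochondrial side 8 genes, AARS2, CARS2, EARS2, IARS2, LARS2, MARS2, NARS2 and PARS2, fell in both NSM and DSF+NSM, and TARS2 fell only with the drugs together. The cytosolic median minus the mitochondrial median was 0.01 for DSF, 0.91 for NSM and 1.00 for both drugs. The 3 comparisons share the DMSO libraries. This cytosolic split depends on the scaling, since with equal sums 6 cytosolic genes rose and 10 fell (median −0.49), and 15 mitochondrial genes fell, where 11.3% of all genes were called higher and 56.3% lower. Leaving out any 1 DMSO library left 10 cytosolic calls, because DARS, FARSA, FARSB, LARS, QARS and VARS lay close to the threshold (adjusted p 0.0273 to 0.0485, and as high as 0.0941 to 0.19 without 1 library).

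**Figure D2:**
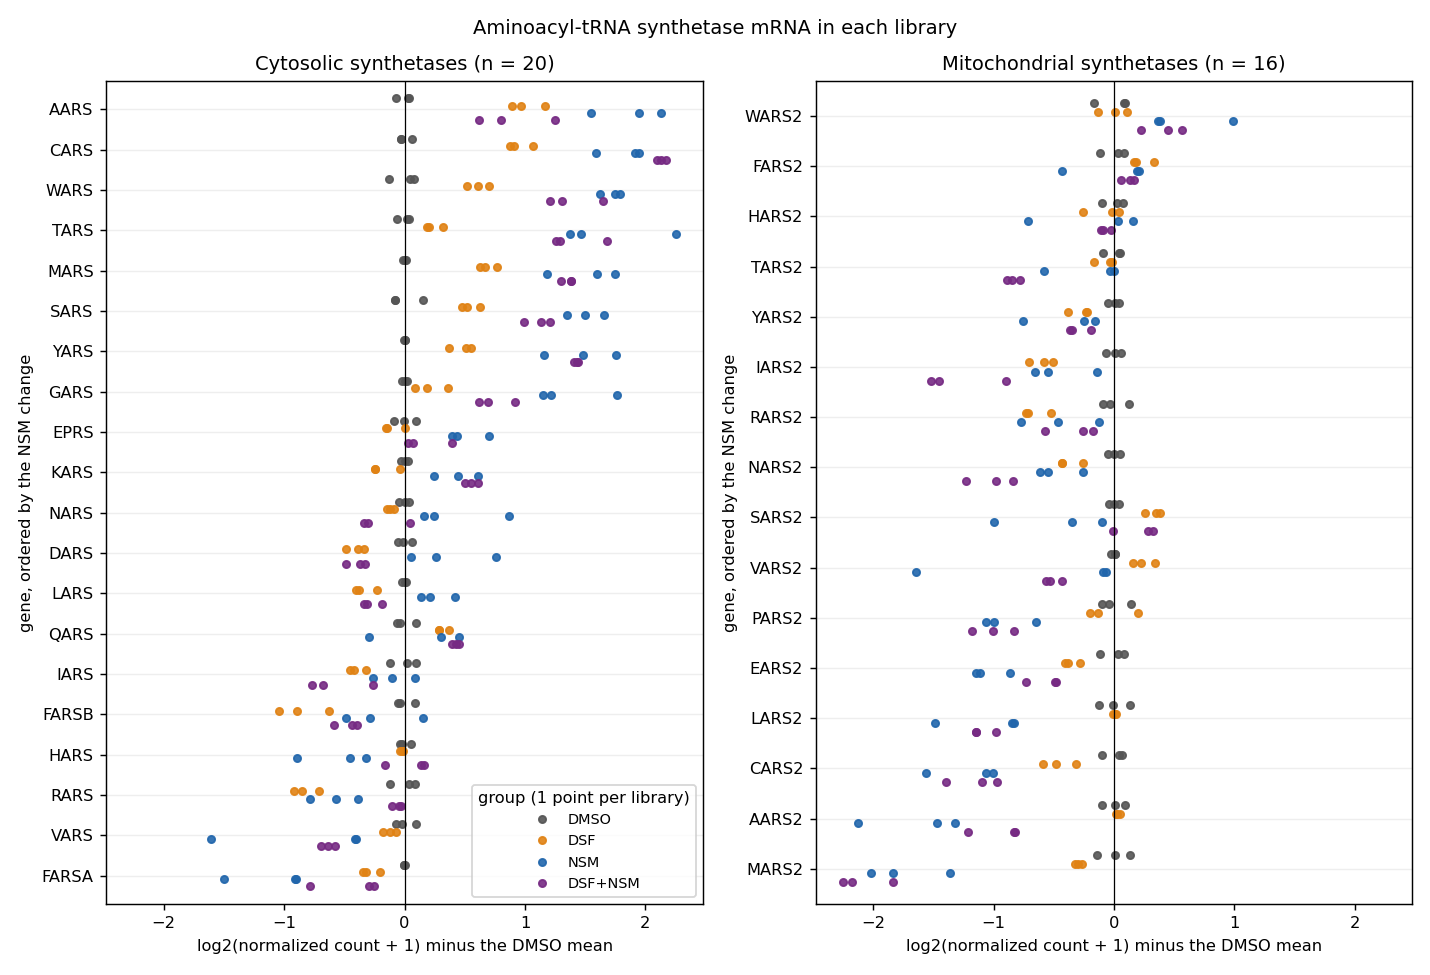
Each point is 1 library, and the horizontal axis is log2(normalized count + 1) minus the DMSO mean of that gene, for the 20 cytosolic (left) and 16 mitochondrial genes (right), ordered by their NSM change. The 10 cytosolic genes that rose after NSM lie at the top left and run up to AARS at 1.87, and the mitochondrial genes that fell run down to MARS2 at −1.74. The NSM point farthest from the others in VARS and VARS2 is NSM replicate 3.

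CARS, the cysteinyl enzyme, was at 1015, 951 and 951 normalized counts in DMSO, 1780, 2038 and 1822 in DSF, 3755, 3665 and 2935 in NSM and 4160, 4373 and 4266 in DSF+NSM libraries. The 4 groups did not overlap, and each lay above the one before. CARS was 1.93-fold above DMSO after DSF (log2 fold change 0.95 ± 0.12 SE, adjusted p = 0.000239), 3.53-fold after NSM and 4.38-fold after both drugs (2.13 ± 0.12). Both drugs together exceeded DSF by 1.18 and did not pass the test against NSM (0.31, adjusted p = 0.0528). AARS, the alanyl enzyme, was at 2532, 2734 and 2709 in DMSO, 5198, 5969 and 4930 in DSF, 11599, 10218 and 7771 in NSM and 4072, 4639 and 6322 in DSF+NSM. NSM libraries were the highest, and DSF+NSM libraries spread from below to above the DSF libraries. AARS rose by 1.01 ± 0.18 after DSF, 1.87 ± 0.18 after NSM and 0.89 ± 0.18 after both drugs on the log2 scale, and fell by 0.98 from NSM to DSF+NSM (adjusted p = 0.000974). With equal sums the AARS rise after both drugs lost its call.

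WARS, the tryptophanyl enzyme, also known as a gene induced by interferon gamma, was at 1551, 1748 and 1789 in DMSO, 2432, 2754 and 2580 in DSF, 5694, 5857 and 5224 in NSM and 3920, 4204 and 5304 in DSF+NSM. No drug group overlapped DMSO. The log2 fold changes were 0.61, 1.72 and 1.39, each ± 0.13 SE. TARS, the threonyl enzyme, was at 2560, 2702 and 2739 in DMSO, 3029, 3330 and 3070 in DSF, 7353, 6932 and 12712 in NSM and 6372, 6537 and 8545 in DSF+NSM. NSM replicate 3 was far above the other NSM libraries. TARS rose 3.25-fold after NSM (1.70 ± 0.20, and 1.42 without that library) and 2.66-fold after both drugs, and DSF gave 0.24 (adjusted p = 0.448). GARS, the glycyl enzyme of both compartments, was at 3203, 3157 and 3110 in DMSO, 3362, 3593 and 4057 in DSF, 7350, 6999 and 10748 in NSM and 4835, 5096 and 5970 in DSF+NSM. NSM lay above DSF+NSM and both above DMSO. The GARS rise was 1.38 ± 0.16 after NSM (1.18 without NSM replicate 3) and 0.74 ± 0.16 after both drugs, where equal sums turned it to −0.04.

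MARS, the methionyl enzyme, was at 2761, 2809 and 2800 in DMSO, 4436, 4753 and 4300 in DSF, 9358, 8433 and 6320 in NSM and 6868, 7260 and 7294 in DSF+NSM. NSM and DSF+NSM overlapped, and both lay above DSF and DMSO. The log2 fold changes were 0.69, 1.51 and 1.35, each ± 0.13 SE. MARS lies against DDIT3 on the opposite strand of chromosome 12 and 355 exon bases are shared in GENCODE 44, which is 5.05% of the MARS exon bases and 27.2% of those of DDIT3. The library kit named does not keep the strand, so reads from the shared bases cannot be told apart, and DDIT3 itself went from 139 to 244 in DMSO to 5778 to 6140 in DSF+NSM libraries. SARS, the seryl enzyme, was at 1164, 1163 and 1366 in DMSO, 1757, 1892 and 1710 in DSF, 3869, 3126 and 3471 in NSM and 2446, 2699 and 2834 in DSF+NSM. Its groups did not overlap, with NSM the highest. SARS rose by 0.54 ± 0.12, 1.50 ± 0.12 and 1.11 ± 0.12 on the log2 scale. YARS, the tyrosyl enzyme, was at 3779 to 3781 in DMSO, 4874 to 5547 in DSF, 8445 to 12757 in NSM and 10054 to 10244 in DSF+NSM, with log2 fold changes of 0.48, 1.46 and 1.43.

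KARS, the lysyl enzyme of both compartments and a member of the multisynthetase complex, was at 4810, 4931 and 5010 in DMSO, 4138, 4139 and 4801 in DSF, 7519, 6672 and 5832 in NSM and 7510, 7227 and 6972 in DSF+NSM. It lay above DMSO in every NSM and DSF+NSM library. KARS rose 1.35-fold after NSM (0.43 ± 0.11, adjusted p = 0.00759) and 1.47-fold after both drugs (0.56 ± 0.11), a direction that equal sums turned to −0.23. EPRS, the joint glutamyl and prolyl enzyme, was at 4364, 4636 and 4949 in DMSO, 4202, 4168 and 4670 in DSF, 6096, 6299 and 7564 in NSM and 4739, 4883 and 6094 in DSF+NSM. NSM libraries lay above DMSO, while DSF and DSF+NSM libraries overlapped it. EPRS rose by 0.51 ± 0.13 after NSM (adjusted p = 0.00568), and after both drugs its change of 0.16 did not pass the test and was −0.62 with equal sums. The 8 enzymes of the multisynthetase complex (EPRS, IARS, LARS, QARS, MARS, KARS, RARS and DARS) had a median log2 fold change of 0.31 after NSM with 3 called higher and 1 lower, and of 0.05 after both drugs, −0.73 with equal sums, with 3 called in each direction. The other 12 cytosolic enzymes had medians of 1.42 after NSM and 0.82 after both drugs, with 7 higher and 3 lower each time. With equal sums the median of these 12 after both drugs was lower as well, AARS losing its call and GARS changing direction. Of all tested genes, 25.4% were called higher and 23.7% lower after NSM, and 28.3% and 24.5% after both drugs.

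Some cytosolic members went the other way. FARSA was at 5629, 5576 and 5594 in DMSO, 4495, 4401 and 4863 in DSF, 3002, 2982 and 1983 in NSM and 4565, 4691 and 3243 in DSF+NSM. All drug libraries lay below DMSO, NSM libraries lowest. FARSA fell to 46.6% of DMSO after NSM (−1.10 ± 0.17, and −0.90 without NSM replicate 3). Its partner FARSB fell by 0.85 after DSF and 0.47 after both drugs, with a change of −0.21 after NSM (adjusted p = 0.314). RARS, the arginyl enzyme, was at 1515, 1745 and 1686 in DMSO, 911, 873 and 1008 in DSF, 956, 1112 and 1255 in NSM and 1595, 1536 and 1615 in DSF+NSM. Either drug alone gave lower values than every DMSO library, and both drugs together gave values within the DMSO range. RARS fell by 0.82 ± 0.13 after DSF and by 0.58 ± 0.13 after NSM, and both drugs together gave −0.06 (adjusted p = 0.727). RARS rose by 0.77 from DSF and by 0.52 from NSM to DSF+NSM. The RARS level after both drugs depends on the scaling. With equal sums the median over all tested genes was −0.68 against DSF, −0.48 against NSM and −0.75 against DMSO.

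HARS, the histidyl enzyme, was at 1167, 1095 and 1110 in DMSO, 1112, 1105 and 1094 in DSF, 899, 820 and 603 in NSM and 1260, 1236 and 1004 in DSF+NSM. NSM libraries were the only ones wholly below DMSO. HARS fell by 0.56 ± 0.15 after NSM (adjusted p = 0.00925), and after both drugs its change of 0.05 turned to −0.74 with equal sums. HARS lies head to head with HARS2, its mitochondrial counterpart, on chromosome 5. The GENCODE 44 models share 108 exon bases at their starts, so some reads there may belong to either gene. HARS2 was at 658, 633 and 581 in DMSO, 521, 640 and 615 in DSF, 695, 639 and 380 in NSM and 613, 586 and 579 in DSF+NSM. Every drug group overlapped DMSO. HARS2 changed by −0.08, −0.17 and −0.07, none of which passed the test. VARS, the valyl enzyme, was at 2246, 2315 and 2511 in DMSO, 2165, 2080 and 2241 in DSF, 1779, 1769 and 771 in NSM and 1519, 1578 and 1456 in DSF+NSM. NSM replicate 3 lay far below the other NSM libraries, and every NSM and DSF+NSM library lay below DMSO. VARS fell by 0.81 ± 0.25 after NSM (0.41 without that library, still called, while the call was lost without DMSO replicate 3, adjusted p = 0.0565) and by 0.63 ± 0.25 after both drugs. VARS2, its mitochondrial counterpart, was at 680, 679 and 664 in DMSO, 786, 856 and 751 in DSF, 645, 634 and 215 in NSM and 456, 501 and 467 in DSF+NSM. VARS2 passed no test against DMSO, with −0.60 after NSM (adjusted p = 0.137) and −0.51 after both drugs (adjusted p = 0.201). Without NSM replicate 3 these were −0.08 (adjusted p = 0.53) and −0.51 (adjusted p = 0.00014). Of its exon bases, 63% are shared with an overlapping gene on the same strand, so its counts are uncertain, as are those of SARS2 (48.2%).

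Of the remaining cytosolic genes, DARS, the aspartyl enzyme, IARS, the isoleucyl enzyme, and LARS, the leucyl enzyme, fell after both drugs by 0.40, 0.57 and 0.28, and against NSM alone they fell by 0.76, 0.47 and 0.54. QARS, the glutaminyl enzyme, rose by 0.42 after both drugs, a direction that equal sums turned to −0.36. NARS, the asparaginyl enzyme, was called in no comparison with DMSO (−0.12, 0.42 and −0.20) and fell by 0.62 from NSM to DSF+NSM. By catalytic class, the 9 class I enzymes had medians of 0.31, 0.26 and 0.42 after DSF, NSM and both drugs, and the 10 class II enzymes −0.07, 0.43 and 0.30, EPRS holding both folds. Equal sums turned the class I medians to −0.013 after NSM and −0.36 after both drugs, and the class II median to −0.48 after both drugs.

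Among the mitochondrial enzymes MARS2, the methionyl enzyme, was at 383, 464 and 425 in DMSO, 350, 338 and 343 in DSF, 118, 164 and 104 in NSM and 92.8, 88 and 118 in DSF+NSM. Every drug library lay below DMSO, and those with NSM far below. MARS2 fell to 30% of DMSO after NSM (−1.74 ± 0.19) and to 23.5% after both drugs (−2.09 ± 0.19, adjusted p = 2.47e-06). AARS2, the alanyl enzyme, was at 801, 860 and 913 in DMSO, 874, 869 and 888 in DSF, 308, 343 and 195 in NSM and 485, 481 and 370 in DSF+NSM. DSF libraries lay inside the DMSO range and the groups with NSM below it, NSM alone lowest. AARS2 fell to 32.1% of DMSO after NSM (−1.64 ± 0.20) and to 51.7% after both drugs (−0.95 ± 0.20), and it was 0.69 higher after both drugs than after NSM (adjusted p = 0.0152). The size of that last difference depends on the scaling. CARS2, the cysteinyl enzyme, was at 1532, 1557 and 1387 in DMSO, 1065, 987 and 1196 in DSF, 742, 713 and 504 in NSM and 698, 759 and 567 in DSF+NSM. Its DSF libraries lay below DMSO without passing the test (−0.47, adjusted p = 0.0741). CARS2 fell by 1.21 ± 0.17 after NSM and 1.15 ± 0.17 after both drugs.

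IARS2, the isoleucyl enzyme, was the mitochondrial gene that fell in all 3 comparisons. It was at 2522, 2662 and 2756 in DMSO, 1765, 1619 and 1865 in DSF, 1675, 1811 and 2401 in NSM and 965, 923 and 1416 in DSF+NSM. DSF and NSM libraries overlapped each other below DMSO, and DSF+NSM libraries lay below all of them. IARS2 fell by 0.60 after DSF, 0.45 after NSM and 1.29 after both drugs, each ± 0.18 SE, and the NSM call was at the threshold (adjusted p = 0.04998), was lost under 14 of the 22 alternatives tried and reached an adjusted p of 0.15 without 1 library. EARS2, the glutamyl enzyme, was at 392, 434 and 450 in DMSO, 326, 319 and 348 in DSF, 196, 233 and 191 in NSM and 304, 256 and 303 in DSF+NSM. Each drug group lay below DMSO, and DSF+NSM above NSM. EARS2 fell by 1.04 ± 0.14 after NSM and by 0.57 ± 0.14 after both drugs. RARS2, the arginyl enzyme, was at 431, 481 and 415 in DMSO, 265, 268 and 307 in DSF, 258, 320 and 404 in NSM and 296, 369 and 391 in DSF+NSM. All drug libraries were below DMSO, and the DSF change (−0.66 ± 0.18) was the one called.

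LARS2, the leucyl enzyme, fell by 1.05 after NSM and 1.09 after both drugs, and its DSF mean (614.7) lay next to its DMSO mean (614.5). PARS2, the prolyl enzyme, fell by 0.90 and 1.00, and NARS2, the asparaginyl enzyme, by 0.47 and 1.02. TARS2, the threonyl enzyme, fell by 0.84 after both drugs and had −0.21 after NSM (adjusted p = 0.298), and both drugs lowered it by 0.63 against NSM alone. WARS2, the tryptophanyl enzyme, was the mitochondrial gene that rose after NSM (1.49-fold, 0.58 ± 0.19, and 0.38 without NSM replicate 3). FARS2, SARS2 and YARS2, the phenylalanyl, seryl and tyrosyl enzymes, were called in no comparison with DMSO, their log2 fold changes lying between −0.48 and 0.33. The call of NARS2 after NSM was lost without any 1 of 5 libraries, with adjusted p up to 0.0801, and that of WARS2 was lost without DMSO replicate 2 (adjusted p = 0.0888).

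The paired enzymes for the same amino acid were compared within each library, where any factor for the library cancels. The log2 ratio of the cytosolic to the mitochondrial gene was higher than in DMSO in every library for 9 of the 17 pairs after DSF, 12 after NSM and 13 after both drugs, and lower in every library for 5, 2 and 2. The median shift was 0.21, 1.31 and 0.82. In single genes, 33.4%, 29.1% and 36.4% of all tested genes had every library above DMSO in these comparisons and 27.6%, 27.9% and 32.9% every library below. No such share was computed for ratios of genes, and EPRS and FARS2 each recur among the 17 pairs. AARS to AARS2 moved most after NSM, from a mean of 1.63 (1.57 to 1.67) in DMSO to 5.15 (4.90 to 5.31), and stood at 3.48 (3.07 to 4.09) after both drugs. MARS to MARS2 went from 2.72 to 5.98 after NSM and 6.18 after both drugs. CARS to CARS2 started below 0 at −0.62 and reached 0.80 after DSF, 2.41 after NSM and 2.67 after both drugs. FARSA to FARS2 went from 4.69 down to 3.60 after NSM, the largest shift in that direction. HARS to HARS2 (0.85, 0.91, 0.47 and 0.97 in DMSO, DSF, NSM and DSF+NSM), VARS to VARS2 (1.80, 1.44, 1.60 and 1.68) and RARS to RARS2 (1.90, 1.73, 1.77 and 2.18) shifted by −0.38 to 0.28 over the 3 comparisons with DMSO.

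**Figure D3:**
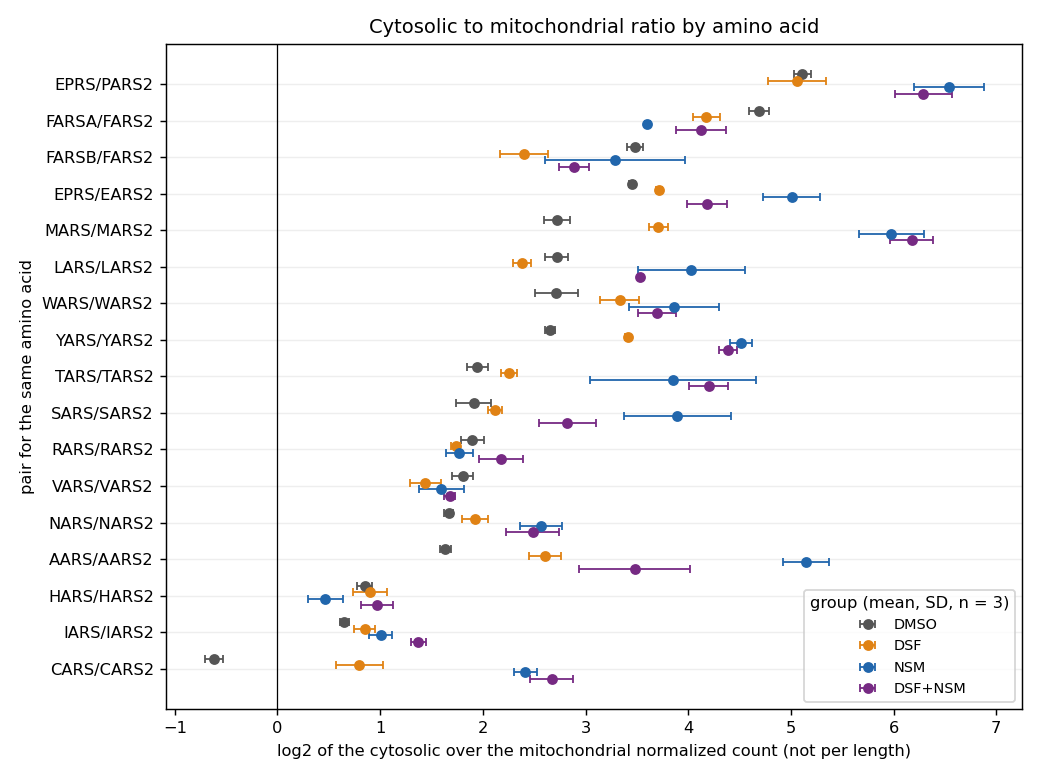
Log2 of the normalized count of the cytosolic gene over that of the mitochondrial gene for 17 pairs, not corrected for length, as the mean with SD over 3 libraries in each group. AARS over AARS2 goes from 1.63 in DMSO to 5.15 in NSM, MARS over MARS2 from 2.72 to 6.18 in DSF+NSM and CARS over CARS2 from −0.62 to 2.67, while FARSA over FARS2 goes down to 3.60 in NSM.

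Whether both drugs together gave the sum of the single changes was tested as an interaction in the same fit. It is the log2 change after both drugs minus the sum of the changes after each alone, so a value below 0 is a change below that sum. Among the cytosolic genes 9 were called, 6 below 0 and 3 above, and among the mitochondrial genes 2 were called, both above 0. Of all genes tested, 26.1% were called (14.0% below 0, 12.1% above). AARS had the largest value, −1.99 ± 0.25 (adjusted p = 0.000199), from changes of 1.01 and 1.87 alone against 0.89 together. WARS (−0.94), SARS (−0.93), GARS (−0.85), MARS (−0.84) and CARS (−0.63), which had all risen after NSM, were also below 0. RARS (1.35 ± 0.18, adjusted p = 0.000282), FARSA (0.94), EARS2 (0.83), RARS2 (0.78) and HARS (0.63) were above 0, and each had fallen after at least 1 drug alone. With equal sums 12 cytosolic genes were below 0 and 1, RARS, above, and 1 mitochondrial gene was called, below 0, where 28.6% of all genes were called below 0 and 6.75% above. The calls of HARS and RARS2 did not hold without 1 of several libraries, with adjusted p up to 0.116 and 0.104.

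Against DSF alone, the combination gave 9 cytosolic genes higher and none lower (median 0.32, and −0.36 with equal sums) and 8 mitochondrial genes lower and none higher (median −0.66), where 43.1% of all tested genes were called (21.7% higher, 21.4% lower). CARS, TARS, YARS, WARS, RARS, KARS, MARS, SARS and GARS were the 9, by 1.18 down to 0.53, and equal sums turned MARS, SARS and GARS to −0.02, −0.11 and −0.16. MARS2 fell by 1.79, LARS2 by 1.10 and AARS2 by 0.99. Against NSM alone 3 cytosolic genes were higher and 8 lower (median −0.28), and 3 mitochondrial genes were higher and 3 lower (median 0.07, and −0.44 with equal sums), where 38.6% of all tested genes were called (20.3% higher, 18.3% lower). FARSA (0.66), HARS (0.60) and RARS (0.52) were higher after both drugs than after NSM, as were SARS2 (0.68), AARS2 (0.69) and EARS2 (0.47), the last of which equal sums turned to −0.04. In this comparison equal sums moved the median over all tested genes from 0.03 to −0.48, a shift that lowers all of these rises. IARS2, TARS2 and NARS2 were lower by 0.84, 0.63 and 0.54. Fitting only those 2 groups left 2 cytosolic and 1 mitochondrial gene called, where 19.1% of all genes were called.

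**Figure D4:**
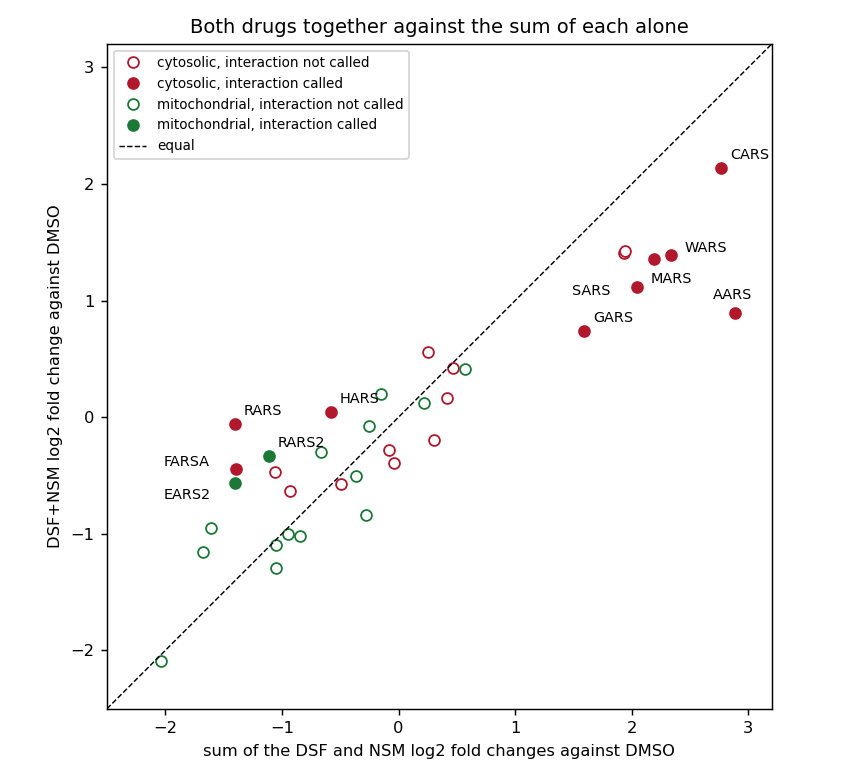
Log2 fold change after both drugs (vertical) against the sum of the changes after DSF and NSM alone (horizontal), both against DMSO, for the 36 genes. The dashed line marks equal values and filled points are called interactions. AARS (−1.99), WARS (−0.94), SARS (−0.93), GARS (−0.85), MARS (−0.84) and CARS (−0.63) lie below the line, and RARS (1.35), FARSA (0.94), EARS2 (0.83), RARS2 (0.78) and HARS (0.63) are above it.

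Read beside the promoter letters, the 7 cytosolic genes with TGATGNAA in their window (CARS, AARS, TARS, MARS, GARS, IARS and NARS) had 5 called higher and none lower after NSM, with a median of 1.51. After both drugs 5 were higher and 1, IARS, lower, with a median of 0.89. With equal sums these changes after both drugs were lower too, the AARS rise losing its call and GARS changing direction. The 9 cytosolic genes with a window but without these letters had 4 higher and 3 lower after NSM (median 0.15) and 4 and 2 after both drugs (median 0.16), and equal sums turned these medians to −0.12 and −0.62. Of all tested genes, 25.4% were called higher and 23.7% lower after NSM, and 28.3% and 24.5% after both drugs. DARS, LARS, VARS and YARS had no window and are outside this split. SARS, WARS, KARS and EPRS rose after NSM without a match in the window, while IARS (−0.09) and NARS (0.42) hold the letters and were not called, as was YARS2 (−0.39), the mitochondrial gene with a match. ATF4 was at 8049 to 9707 in DMSO, 12902 to 15226 in DSF, 22166 to 30445 in NSM and 23065 to 26892 in DSF+NSM libraries, and rose by 0.67, 1.57 and 1.53 on the log2 scale.

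The list of 11 genes of the stress response that runs through eIF2 and ATF4 holds ATF4 itself. After each treatment 8 of its genes were called higher, and none, 1 and 3 were called lower. Of all genes, 11.9%, 25.4% and 28.3% were called higher and 5.95%, 23.7% and 24.5% lower. With equal sums 8, 8 and 7 were called higher, beside 8.96%, 16.4% and 11.3% of all genes. The 3 called lower after both drugs were EIF2AK4, GCN1 and IMPACT, which act at or upstream of the eIF2 kinase step. DDIT3, which encodes the factor CHOP, rose by 3.14, 4.85 and 4.99, TRIB3, a pseudokinase target of both factors, by 2.29, 3.73 and 3.65, PPP1R15A, which recruits the phosphatase of eIF2, by 3.14, 4.58 and 6.10, and ATF3 by 2.77, 2.85 and 5.85. ASNS was at 2017 to 2220 in DMSO, 3009 to 3406 in DSF, 7969 to 9845 in NSM and 3488 to 4876 in DSF+NSM. Like AARS, it was highest in NSM libraries, and its interaction was −1.78. EIF2AK4, the kinase that senses uncharged tRNA, was called only after both drugs, falling by 0.64. MYC fell by 1.46 after NSM and fell by 4.17 after both drugs, from 6648 to 7246 in DMSO to 261.0 to 588.3 in DSF+NSM libraries.

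Of the scaffold proteins of the multisynthetase complex, AIMP1 was at 1106 to 1205 in DMSO and rose by 0.96 after NSM and after both drugs, EEF1E1 fell by 0.45, 0.62 and 0.47, and AIMP2 was not called (−0.33, 0.07 and −0.38). Mitochondria make glutaminyl-tRNA with the amidotransferase of QRSL1, GATB and GATC. QRSL1 rose by 0.95 after NSM and 0.38 after both drugs, where equal sums turned it to −0.40, GATC fell in all 3 (0.39, 0.34 and 0.45) and GATB fell by 0.74 after NSM alone. MTFMT, which formylates the initiator methionyl-tRNA that MARS2 charges, was at 170, 200 and 183 in DMSO, 105, 133 and 139 in DSF, 91.8, 124 and 113 in NSM and 36.7, 47.1 and 71.2 in DSF+NSM. The libraries with both drugs were the lowest. MTFMT fell by 0.75 after NSM and 1.86 after both drugs.

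Charged tRNA is used by the elongation factors of either compartment. The counts below stand beside shares of all tested genes. These were 11.9%, 25.4% and 28.3% called higher and 5.95%, 23.7% and 24.5% called lower after DSF, NSM and both drugs. All 5 cytosolic elongation factors rose after NSM and after both drugs, by 0.42 to 0.72 and 0.59 to 1.24, and 1 rose after DSF. EEF1D and EEF1G, subunits of the exchange factor of EEF1A, rose by 1.24 and 1.08 after both drugs. With equal sums 3 rose after NSM and 1 after both drugs, with a median of 0.17, where 16.4% and 11.3% of all genes were called higher. Of 9 mitochondrial translation factors 1 fell after DSF, and after NSM and after both drugs 2 rose and 3 fell, TSFM by 1.43 and 1.47 and GFM1 by 0.85 and 1.25 among them. Of 19 genes for transcription, processing and export of tRNA, 2 rose and 4 fell after DSF, 4 and 10 after NSM and 2 and 11 after both drugs. XPOT, the tRNA exporter, rose by 1.89 after NSM and had 0.57 after both drugs (adjusted p = 0.109), and BRF2, an initiation factor of RNA polymerase III, rose by 0.75, 0.70 and 2.34. Of 5 genes that clear mischarged or stalled tRNA, 2, 3 and 3 fell and none, none and 1 rose, DTD2 falling by 2.30 after both drugs. Of 6 selenocysteine genes none was called after DSF, and 2 rose and 1 fell in each of the other comparisons, SECISBP2 rising and SEPHS1 falling by 1.09 and 1.08 after both drugs. Of 8 interferon-induced genes 7 were listed and 6 tested, with 4, 3 and 4 called higher and none, 1 and none lower. CXCL10 rose by 1.68, 2.56 and 2.09 and ISG15 by 2.24 after both drugs.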

How the data were processed

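RNA from SHI-1 cells was sequenced in 12 libraries with the TruSeq RNA v2 kit, and whether counting used strand is not given in the sources used here. For each library a table of genes was deposited by the authors, and its signal values are normalized counts. The study's methods name nf-core/rnaseq with STAR, Salmon and DESeq2 on NCBI GRCh38, whereas the submitters' processing notes list bcl2fastq 2.19, Trimmomatic, Bowtie2, Picard, featureCounts and DESeq2 on hg38. The labels and the methods name different culture media. The header of each table gives 24 columns, and the 12 libraries used are those of the labels. Whether the normalization factors were set over more libraries than those analysed here is not given in the sources used. Between 31.0% and 31.8% of nonzero values were whole multiples of the smallest step in a library, so reads were not recovered and depth is an estimate.

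Genes with at least 10 normalized counts in at least 3 libraries (13502) were tested with limma 3.58.1 in R 4.3.3 (trend, robust) on log2(normalized count + 1) over the 12 libraries with group means, adjusted by Benjamini-Hochberg over all of them. Fold changes are on that scale and understate the change of low genes. The interaction was a contrast of the same fit. The procedure was tested on simulated data. Overlaps and transcript lengths came from GENCODE 44 and promoter windows from RefSeq, matched by current or older symbols. The members and all gene lists were chosen with earlier results of these data known. All members are named. Values per library are given for the 4 called members of each class with the largest change, for members with a called interaction, for HARS and HARS2, VARS and VARS2, GARS, KARS, WARS and EPRS, and up to 2 called genes of each other list are named. The rule printed up to 4 promoters with TGATGNAA, and the other 4 matches were added so that all are shown. Alternatives were equal library sums, median-of-ratios and trimmed-mean scaling, pseudocounts of 0.1 and 10, other filters, only the groups compared, library weights, a replicate block and each library left out. A count model was not run because whole reads were not recovered. A few genes of these lists are not reported here by name.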

Additional observations from a re-analysis of the deposited data

Results flagged for a closer look

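For 11 of the 36 synthetases the effect of one drug differed with the other drug present, by the interaction term of the limma fit at an adjusted p under 0.05 over all tested genes. The log2 change after both drugs was below the sum of the single changes for AARS (−1.99, adjusted p = 0.000199), WARS (−0.94, 0.00259), SARS (−0.93, 0.00207), GARS (−0.85, 0.0141), MARS (−0.84, 0.00627) and CARS (−0.63, 0.0148). It was above that sum for RARS (1.35, 0.000282), FARSA (0.94, 0.014), EARS2 (0.83, 0.0101), RARS2 (0.78, 0.0409) and HARS (0.63, 0.0485). Of all tested genes, 26.1% had a called interaction. With equal sums RARS was the only one of these 11 still called above that sum. The calls of HARS and RARS2 were also lost when single libraries were left out. Dixon's check for a single outlying value was not run, since each group holds 3 libraries.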

How the results depend on the processing

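Of the 216 fold changes of single synthetases over the 6 contrasts, 104 were called, and 209, 213, 214, 215, 209 and 216 kept their direction and side of the threshold under median-of-ratios scaling, trimmed-mean scaling, pseudocounts of 0.1 and 10, no filter and at least 10 in every library. A change of direction was counted only where the value was called in at least 1 of both fits. Equal sums kept 137, only the groups compared 141 of 180, library weights 166, and leaving out 1 library 184 to 208. The cause of the differences between settings was not tested. Estimated depth limits the low genes most, and the step between values of 0.756 to 2.22 is the size of 1 estimated read.

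With equal sums these turned below 0: after both drugs against DMSO EPRS (−0.62), FARS2 (−0.66), GARS (−0.042), HARS (−0.74), KARS (−0.23), QARS (−0.36) and SARS2 (−0.58), against DSF DARS (−0.68), EPRS (−0.42), GARS (−0.16), HARS (−0.61), LARS (−0.63), MARS (−0.019), QARS (−0.57), SARS (−0.11) and HARS2 (−0.68), and against NSM KARS (−0.39), CARS2 (−0.46), EARS2 (−0.038) and YARS2 (−0.43). The change from NSM to DSF+NSM was −0.23 to 0.38 for VARS and −0.43 to 0.36 for VARS2 with 1 library left out (lowest without NSM replicate 3, highest without NSM replicate 1), and −0.39 for VARS2 with library weights. Equal sums gave 15 mitochondrial calls for DSF+NSM against DMSO (67.5% of all genes called) and 14 against DSF (61.0%), and 1 for the interaction (35.3%).

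For DSF, fitting only the groups compared gave 16 cytosolic and 9 mitochondrial calls (56.0% of all genes called) and library weights 16 and 10 (59.0%). Library weights gave 14 mitochondrial calls for DSF+NSM against DMSO (73.3% of all genes), 14 cytosolic calls against DSF (64.6%), and 14 cytosolic and 6 mitochondrial calls for the interaction (56.5%). Only the groups compared gave 2 cytosolic and 1 mitochondrial call for DSF+NSM against NSM (19.1% of all genes). Trimmed-mean scaling left 1 mitochondrial interaction. The difference of class medians for DSF+NSM against NSM was −0.35, and −0.15 with library weights.

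Leaving out 1 library gave 6 to 12 cytosolic and 0 to 8 mitochondrial calls for DSF (8 without NSM replicate 3, where 41.2% of all genes were called, 1 without DSF replicate 3 and 0 without any DMSO library or DSF replicate 1 or 2), 10 to 16 cytosolic calls for DSF+NSM against DMSO (10 without any DMSO library), 6 to 13 cytosolic and 3 to 8 mitochondrial calls against NSM (6 and 3 without DSF+NSM replicate 1 or 2) and 1 to 4 mitochondrial interactions (4 without NSM replicate 3, and 1 without most others). The difference of class medians was −0.034 to 0.11 for DSF (−0.0082 without DMSO replicate 1, −0.034 without DSF replicate 1), −0.43 to −0.10 for DSF+NSM against NSM (−0.10 without NSM replicate 3) and −0.47 to −0.13 for the interaction, against −0.25 (−0.43 without NSM replicate 1, −0.47 without NSM replicate 2). For NSM against DMSO the difference stayed between 0.89 and 1.06, and for both drugs between 0.98 and 1.05. Without 1 DMSO library 44.3% to 45.4% of all genes were called for DSF+NSM against DMSO. Without DSF+NSM replicate 1 or 2 the share was 27.3% and 27.4% against NSM. For DSF it was 6.77% to 10.3% in the fits with 0 mitochondrial calls.

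The labels do not say that equal replicate numbers mark the same experiment. Of 18 pairs of libraries with the same number, 2 correlated above 0.1 in their deviations from the group means (−0.0644 to 0.278). Of 12 libraries, 6 correlated best with their own number. Correlations this weak, over few libraries in each group, cannot decide whether equal numbers mark the same experiment. With the replicate number as a block, NSM gave 15 cytosolic and 11 mitochondrial calls against DMSO, where 50.7% of all genes were called. Of the 216 fold changes 210 kept their call, 6 were newly called and none was lost.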
